A study of Homo sapiens with 15 samples.

Results

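The genes of the aryl hydrocarbon receptor pathway were followed in RNA-Seq counts of MDA-MB-468 cells, a human triple-negative breast cancer line with very high EGFR. The 8 genes, taken by symbol and mapped to the Ensembl IDs of the count table, were CYP1A1, CYP1A2, CYP1B1, ALDH3A1, AHR, ARNT, AHRR and TIPARP, 8 of 61552 genes listed. They were chosen by their erlotinib vs. EGF values, CYP1A1 and ALDH3A1 being known beforehand to rise strongly with erlotinib in these libraries, so the erlotinib values of the 8 genes are given here as a description without a p-value. All 8 had an ID in the table, and none was left out.

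The aryl hydrocarbon receptor (AHR) is a ligand-activated transcription factor of the bHLH-PAS family that waits in the cytoplasm with HSP90 chaperones until a planar aromatic compound, such as a dioxin, a combustion product or a tryptophan metabolite, binds it. It then enters the nucleus, pairs with ARNT and binds xenobiotic response elements in front of genes for drug-metabolising enzymes, of which CYP1A1 is the classical readout. AHRR and TIPARP are induced by the receptor and restrain it in turn. In breast tissue these enzymes are studied for their part in oestrogen and carcinogen metabolism.

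The study asked how transcription that depends on EGFR in the nucleus differs from transcription that depends on EGFR kinase activity, and sequenced 15 libraries, 3 in each of 5 groups. In the drug experiment, parental MDA-MB-468 cells were starved of serum for 12 h and then given 10 ng/mL EGF for 12 h, either by itself (EGF), with 10 µM cSNX1.3, a peptide that blocks retrograde trafficking of EGFR to the nucleus, or with 15 µM erlotinib, a small-molecule inhibitor of the EGFR kinase. In the line experiment, the cells carried a lentiviral, IPTG-inducible shRNA against endogenous EGFR and had then been transfected with GFP-tagged EGFR, either wildtype (WT) or with 3 basic residues of its nuclear localization sequence (NLS) mutated (ΔNLS), and both lines received EGF. The knockdown was induced with 1 mM IPTG in both lines, a treatment that the parental groups did not have. No library without EGF, with the drug solvent or with a control peptide was analysed here, so each drug value compares EGF plus drug with EGF. Whether each line was 1 clone or a pool, the EGF dose given to the lines and whether replicates came from separate cultures are not given in the sources used here; p-values therefore measure the spread between these samples, which may be technical. The lines and the parental cells differ in both construction and experiment, which cannot be told apart when their levels are set side by side.

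Libraries held 22915676 to 35900649 counts. EGFR, the gene targeted in the lines, had 4316 to 4960.1 CPM (read counts scaled to the library total) with EGF, 5757 to 6498 with cSNX1.3 and 4561 to 4988 with erlotinib, against 1146 to 1449 in WT and 1687 to 1745 in ΔNLS, and reads of the endogenous and the introduced gene could not be separated. EGFR was higher in ΔNLS than in WT by 0.37 (log2; edgeR adjusted p = 0.00367). The epithelial markers EPCAM, KRT8, KRT18, KRT19 and CDH1 were present in every group, the oestrogen receptor gene ESR1 had 61 to 292 counts and the progesterone receptor gene PGR had 0 in every library. Of the markers of other cell types, the leukocyte gene PTPRC had 0 to 7 counts, the hepatocyte gene ALB 0 to 5, the myofibroblast gene ACTA2 0 to 30, the endothelial gene PECAM1 22 to 185 and the collagen gene COL1A1 268 to 583.

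CYP1A1 is the gene on which the erlotinib values turn, so the 250 bases upstream of its annotated start (RefSeq, GRCh38.p14, minus strand, chr15:74725529-74725778) are shown, and TIPARP, which was lower in ΔNLS than in WT, is shown for comparison (plus strand, chr3:156674340-156674589). Capitals mark the core of the xenobiotic response element, GCGTG, or CACGC where the core is on the other strand. 
CYP1A1, upstream window: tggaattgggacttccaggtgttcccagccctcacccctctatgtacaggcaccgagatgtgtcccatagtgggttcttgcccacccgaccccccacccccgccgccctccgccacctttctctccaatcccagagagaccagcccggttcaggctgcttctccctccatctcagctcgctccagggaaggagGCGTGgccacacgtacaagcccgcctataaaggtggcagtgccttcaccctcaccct
TIPARP, first start site, upstream window: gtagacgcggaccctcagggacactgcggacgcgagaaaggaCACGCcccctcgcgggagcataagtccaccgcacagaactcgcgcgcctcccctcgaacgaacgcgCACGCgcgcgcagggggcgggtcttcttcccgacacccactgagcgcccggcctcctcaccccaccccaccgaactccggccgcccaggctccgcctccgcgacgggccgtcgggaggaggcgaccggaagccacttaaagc
The CYP1A1 window held 1 core match and the TIPARP window 2, and cores of either strand were found in 32.2% of 35116 RefSeq promoter windows of this length. In the 2000 bases upstream of the start, CYP1A1 held 11 core matches on both strands, a number reached by 0.726% of promoters (78.5% had at least 1, with a median of 2). Of these, 5 also carried the extended motif TNGCGTG, which contains the core and was found in 28.6% of promoters. The 5 extended matches of CYP1A1 are shown with their flanks, on the strand that carries the motif.
CYP1A1, 1385 bases upstream, plus strand, chr15:74726901-74726921: ttgtatttGCGTGcctagctc
CYP1A1, 1059 bases upstream, minus strand, chr15:74726575-74726595: cccccctcGCGTGactgcgag
CYP1A1, 986 bases upstream, plus strand, chr15:74726502-74726522: caggcgttGCGTGagaaggac
CYP1A1, 898 bases upstream, plus strand, chr15:74726414-74726434: gctagcttGCGTGcgccggcg
CYP1A1, 503 bases upstream, plus strand, chr15:74726019-74726039: cccggctcGCGTGagaagcgc
The flanks differed from match to match, and a match describes letters in a window, not a bound site. Windows were matched for 6 of the 8 genes, with 9 start sites among them; CYP1B1 and ALDH3A1 had no entry. CYP1A2, which lies next to CYP1A1 on chromosome 15, held 1 core match in 2000 bases and AHR held 0. ARNT held 6, a number reached by 9.84% of promoters, with 2 extended. AHRR held 4 and 8 upstream of its 2 start sites (numbers reached by 25.9% and 3.25%). TIPARP held 7, 7 and 2 upstream of its 3 (reached by 5.63%, 5.63% and 57.2%). Each of these AHRR and TIPARP stretches held 1 extended match, and the stretches of neighbouring starts overlapped each other.

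**Figure D1:**
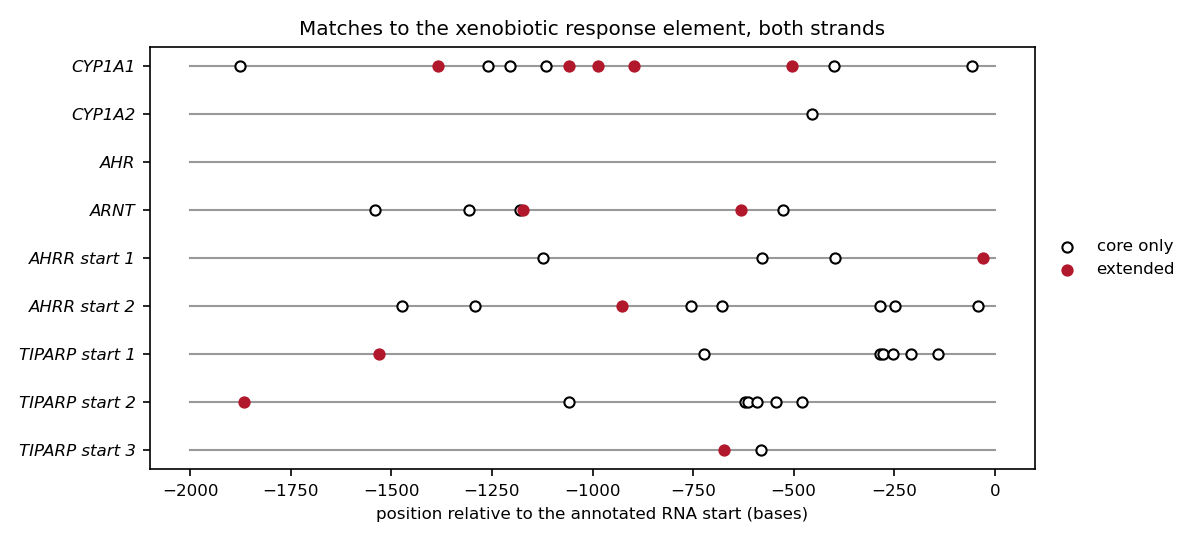
Matches to the xenobiotic response element in the 2000 bases upstream of each RefSeq start site of 6 genes, with the position in bases relative to the start on the horizontal axis and 1 line per start site. Open circles are core matches (GCGTG, either strand) and filled circles extended matches (TNGCGTG); CYP1A1 has 11 matches, 5 of them extended, and AHR has 0.

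CYP1A1 (ENSG00000140465; GRCh38 chr15:74719542-74725536, minus strand, 7 exons) encodes the cytochrome P450 that oxidises polycyclic aromatic hydrocarbons. With erlotinib its level was 7.67, 9.08 and 7.72 CPM (259, 222 and 219 counts), against 0.452, 0.115 and 0.259 CPM with EGF (11, 3 and 7 counts). Every erlotinib library stood above every other library of the series, and CYP1A1 was near the limit of detection in the other 4 groups. The fitted difference, erlotinib vs. EGF, was 4.89 on the log2 scale (SE 0.28), or 29.7-fold. With cSNX1.3 the level was 0.229, 0.209 and 0.219 CPM, within the range of the EGF libraries. In the lines it was 0.0331, 0.285 and 0.166 CPM in WT and 0.144, 0.246 and 0.178 CPM in ΔNLS, also overlapping. In rising order of the mean, WT, ΔNLS, cSNX1.3 and EGF each overlapped the next, and erlotinib overlapped none.

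CYP1A2 (ENSG00000140505; chr15:74748845-74756607, plus strand, 7 exons) encodes the liver P450 that clears caffeine. It had 6, 1 and 5 counts with erlotinib and 0 in each of the 6 EGF and cSNX1.3 libraries. WT had 0, 2 and 0 counts and ΔNLS 1, 1 and 0, so that only erlotinib libraries passed 3 counts, the number up to which a gene was taken as not detectable in a library. Taking 3 counts in each EGF library as the limit, CYP1A2 was at least 1.13-fold higher with erlotinib, and 1 of the erlotinib libraries lay below that limit. CYP1A2 had too few counts for a fit in any comparison.

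CYP1B1 (ENSG00000138061; chr2:38066973-38109902, minus strand, 3 exons) encodes the P450 that hydroxylates oestradiol and was the most abundant of the 8 genes per length in every group but cSNX1.3, where AHR was above it (11.3 ± 1.11 for CYP1B1 and 12.1 ± 1.66 for AHR, CPM per kb of exon, SD, n = 3). With EGF it stood at 93.6, 96.3 and 87.8 CPM, and with erlotinib at 380.4, 440.3 and 388 CPM. The erlotinib libraries were all far above the rest, the difference from EGF being 2.13 (log2; SE 0.10), or 4.39-fold. With cSNX1.3 CYP1B1 stood at 75.4, 62.8 and 65.5 CPM, below all libraries of the other groups. WT (78.3, 87.6 and 78.5 CPM) and ΔNLS (79.9, 86.7 and 83.0 CPM) overlapped each other, and both lay below EGF. Counting ignored strand, and 11.3% of the exonic bases of CYP1B1 are shared with the antisense gene CYP1B1-AS1, whose reads cannot be told apart from it there. CYP1B1-AS1 stood at 2.48 to 3.37 CPM with EGF and at 7.61 to 10.7 CPM with erlotinib, higher by 1.69 (log2; SE 0.19). Its counts may hold reads of CYP1B1, so this difference is given without a test.

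ALDH3A1 (ENSG00000108602; chr17:19737984-19748943, minus strand, 11 exons) encodes an aldehyde dehydrogenase that is induced through the receptor in epithelia. Its levels were above those of the EGF libraries in both lines as well as with erlotinib. With EGF it stood at 0.575, 0.305 and 0.370 CPM and with cSNX1.3 at 0.366, 0.250 and 0.365 CPM, whereas erlotinib gave 9.54, 9.20 and 9.27 CPM. The erlotinib difference from EGF was 4.49 (log2; SE 0.22), or 22.5-fold. In the lines, WT stood at 8.30, 9.24 and 8.68 CPM without erlotinib, overlapping the erlotinib libraries, and ΔNLS at 3.46, 3.33 and 3.98 CPM. Unlike CYP1A1, ALDH3A1 was thus well detected in both lines, with 251 to 314 counts in WT and 108 to 120 in ΔNLS, where CYP1A1 had 1 to 9 counts. Rising from the lowest mean, cSNX1.3 and EGF overlapped, ΔNLS stood apart, and WT and erlotinib overlapped.

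**Figure D2:**
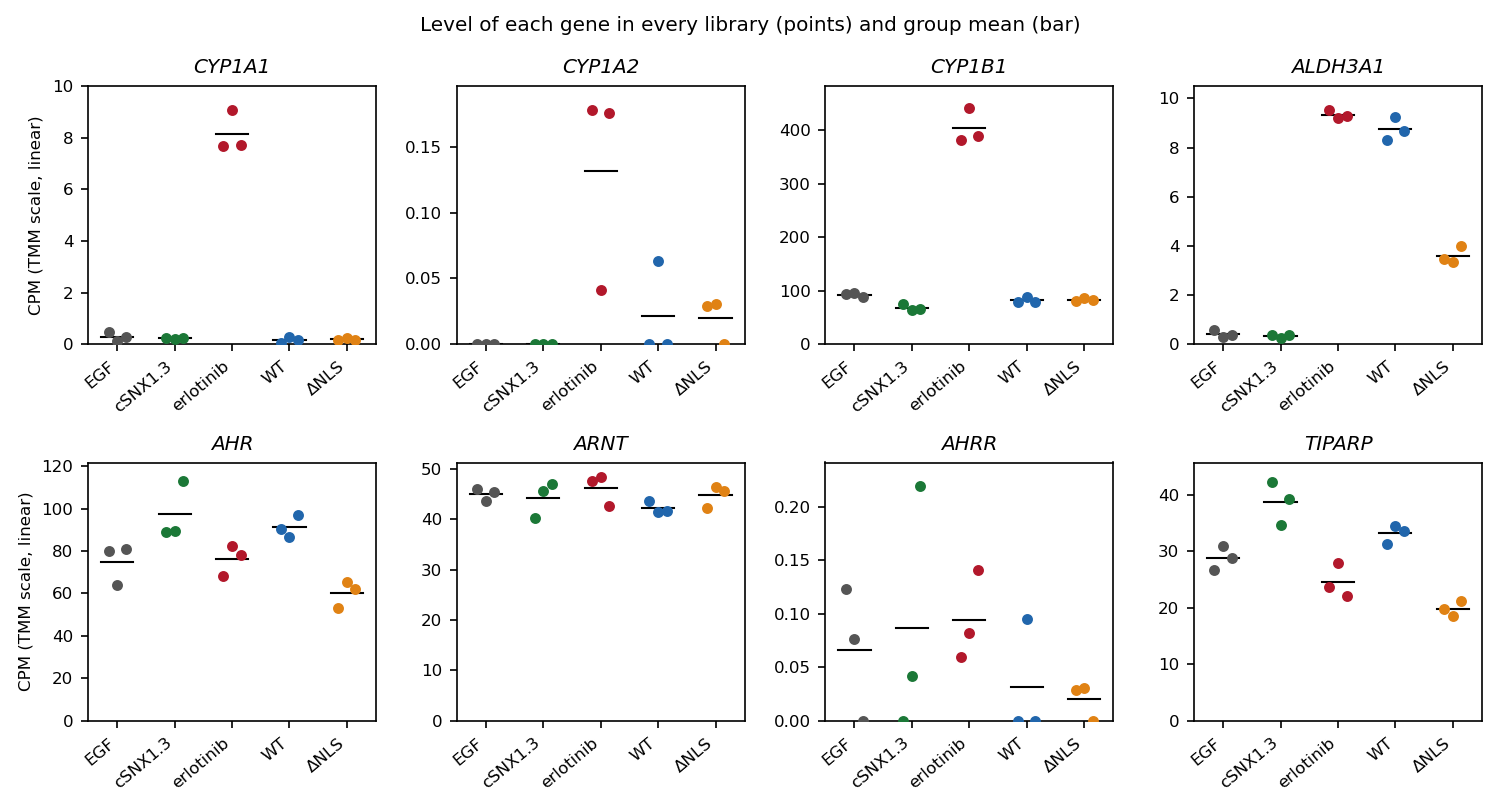
Level of each of the 8 genes in every library, in CPM on a linear axis that starts at 0, by group; points are libraries and bars are group means (n = 3). CYP1A1 and CYP1B1 stand apart with erlotinib, at 7.67 to 9.08 and 380.4 to 440.3 CPM, ALDH3A1 is high with erlotinib and in both lines, and ARNT lies between 40.2 and 48.4 CPM throughout.

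The receptor gene AHR (ENSG00000106546; chr7:16916359-17346152, plus strand, 11 exons) was expressed in all groups. It stood at 79.9, 64.1 and 80.9 CPM with EGF and at 68.4, 82.6 and 78.1 CPM with erlotinib, and these overlapped. With cSNX1.3 it stood at 89.2, 89.6 and 113 CPM, each above every EGF library. WT stood at 90.5, 86.7 and 97.2 CPM and ΔNLS at 53.2, 65.6 and 62.0 CPM, with no overlap between the lines. In rising order, ΔNLS, EGF and erlotinib each overlapped the next, and WT and cSNX1.3 formed a higher pair that also overlapped. A same-strand gene of the annotation, ENSG00000283321, shares 29.5% of the exonic bases of AHR and had 0 counts in every library. How reads of the shared part were counted is not given, so the level of AHR, also per length, may be understated.

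ARNT (ENSG00000143437; chr1:150809713-150876708, minus strand, 22 exons), the partner of AHR and of the hypoxia factors, was the most even of the 8 genes. Its levels were 46.0, 43.6 and 45.3 CPM with EGF, 40.2, 45.5 and 46.9 CPM with cSNX1.3 and 47.5, 48.4 and 42.7 CPM with erlotinib. The lines stood at 43.6, 41.5 and 41.6 CPM (WT) and 42.2, 46.4 and 45.5 CPM (ΔNLS). All neighbouring groups in the order of the means overlapped.

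Of the repressors, AHRR (ENSG00000063438; chr5:321714-438291, plus strand, 11 exons), which competes with AHR for ARNT, was hardly detected. It had 3, 2 and 0 counts with EGF, 0, 1 and 6 with cSNX1.3, 2, 2 and 4 with erlotinib, 0, 3 and 0 in WT and 1, 1 and 0 in ΔNLS. No order could be read from these counts, and no fold is given. The read-through gene PDCD6-AHRR, on the same strand, shares 58.7% of the exonic bases of AHRR and had 0 to 2 counts in a library. How reads of the shared part were counted is not given, so low counts of both need not mean low expression.

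TIPARP (ENSG00000163659; chr3:156673235-156706770, plus strand, 6 exons) encodes a mono-ADP-ribosyltransferase that marks AHR for degradation. It stood at 26.7, 30.9 and 28.8 CPM with EGF and at 42.3, 34.6 and 39.2 CPM with cSNX1.3, which did not overlap. With erlotinib it stood at 23.6, 27.9 and 22 CPM, overlapping EGF only at its highest library. WT stood at 31.3, 34.5 and 33.6 CPM and ΔNLS at 19.8, 18.5 and 21.1 CPM, the lowest of all groups. In rising order ΔNLS stood apart, erlotinib and EGF overlapped, and WT and cSNX1.3 each lay above the group before, the highest WT library (34.5 CPM) lying next to the lowest cSNX1.3 library (34.6 CPM).

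Per length (CPM per kb of exon), the order of the genes with EGF was CYP1B1 15.4 ± 0.721 (SD, n = 3), AHR 9.31 ± 1.17, ARNT 6.97 ± 0.190, TIPARP 6 ± 0.430, ALDH3A1 0.107 ± 0.0363, CYP1A1 0.0818 ± 0.0503 and AHRR 0.00702 ± 0.00656, with CYP1A2 at 0 counts. ALDH3A1 and CYP1A1 did not differ beyond their spread. With erlotinib CYP1B1 reached 66.9 ± 5.41, while CYP1A1 (2.43 ± 0.237) and ALDH3A1 (2.41 ± 0.0463) reached like levels that stayed below those of AHR (9.49 ± 0.896), ARNT (7.17 ± 0.481) and TIPARP (5.10 ± 0.637). So the genes with the largest fold were not those with the highest level. In bulk RNA, more cells that express a gene and more RNA per cell cannot be told apart.

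In the fit of erlotinib vs. EGF, 6 of the 8 genes had enough counts, and CYP1A1 and ALDH3A1 passed the filter through their erlotinib libraries. Differences were 0.03 for AHR (SE 0.12), 0.05 for ARNT (SE 0.09) and -0.23 for TIPARP (SE 0.11). Over all 15738 genes fitted, 44% were called in this contrast, 22.8% higher and 21.2% lower, and 52.3% had groups that did not overlap. CYP1A1, CYP1B1 and ALDH3A1 were among those called higher, which follows from how the genes were chosen, and nothing is read from it.

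For cSNX1.3 vs. EGF, which shares its EGF libraries with the erlotinib comparison, CYP1B1 was lower and TIPARP higher. CYP1B1 fell by 0.44 on the log2 scale (SE 0.09; edgeR adjusted p = 0.00891), or 1.36-fold, all 3 cSNX1.3 libraries lying below all 3 EGF libraries. TIPARP rose by 0.43 (SE 0.11; adjusted p = 0.0269), or 1.35-fold, again without overlap. Of the 8 genes, 4 passed the filter when only the EGF and cSNX1.3 libraries were fitted (CYP1B1, AHR, ARNT and TIPARP), and 2 of these 4 were called. Of all genes in the drug fit, 6.07% were called, 3.38% higher and 2.69% lower. AHR had a difference of 0.38 (95% interval 0.12 to 0.63; adjusted p = 0.0790), which missed the threshold although its groups did not overlap. Groups did not overlap for CYP1B1, TIPARP and AHR, 3 of these 4 genes, against 25.7% of all genes. ARNT differed by -0.02 (95% interval -0.22 to 0.18; adjusted p = 0.930). CYP1A1 (-0.30; 95% interval -1.30 to 0.70) and ALDH3A1 (-0.33; 95% interval -1.07 to 0.41) entered the fit through the erlotinib libraries, so their cSNX1.3 differences are given without a test, and their low counts left wide intervals.

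The cSNX1.3 calls rested on few libraries. TIPARP lost its call without EGF replicate 1 (adjusted p = 0.146) or EGF replicate 3 (adjusted p = 0.0828) and without cSNX1.3 replicate 1 (adjusted p = 0.081) or replicate 3 (adjusted p = 0.0802), and CYP1B1 lost its call without cSNX1.3 replicate 2 (adjusted p = 0.0593), with differences that kept their sign. AHR passed the threshold with DESeq2 (adjusted p = 0.0417), without a filter on low counts (adjusted p = 0.0163), in a fit of all 15 libraries (adjusted p = 0.0352) and without cSNX1.3 replicate 1 (adjusted p = 0.0448), the range over all alternatives being 0.0163 to 0.307.

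For ΔNLS vs. WT, ALDH3A1, AHR and TIPARP were lower and CYP1B1 and ARNT did not pass the test. ALDH3A1 fell by 1.29 (log2; SE 0.13; edgeR adjusted p = 5.64e-07), or 2.44-fold. TIPARP fell by 0.74 (SE 0.08; adjusted p = 2.54e-06), or 1.67-fold, and AHR fell by 0.60 (SE 0.08; adjusted p = 2.33e-05), or 1.52-fold. In each of these 3 genes all ΔNLS libraries lay below all WT libraries. They were 3 of 5 genes fitted, where 41.4% of all 15805 genes fitted were called, 20.4% higher and 21.0% lower, and where 52.2% of all genes had groups that did not overlap. CYP1B1 differed by 0.03 (95% interval -0.12 to 0.18; adjusted p = 0.763) and ARNT by 0.08 (95% interval -0.07 to 0.24; adjusted p = 0.398). CYP1A1, with at most 9 counts in a line library, was not fitted. EGFR was higher in ΔNLS, and 4 of the 5 other epithelial markers were lower there (KRT8 -0.73, KRT18 -0.74, KRT19 -0.62 and CDH1 -0.39, with adjusted p from 8.98e-06 to 0.000279), EPCAM differing by -0.13 (adjusted p = 0.183). With erlotinib KRT8 (-1.20; adjusted p = 2.44e-06) and KRT18 (-1.14; adjusted p = 4.21e-06) were lower and CDH1 higher (0.47; adjusted p = 0.000239), while KRT19 (-0.32; adjusted p = 0.0647) and EPCAM (-0.12; adjusted p = 0.368) did not pass. KRT18 was higher with cSNX1.3 (0.57; edgeR adjusted p = 0.0138). KRT8 (0.26), EPCAM (0.19), KRT19 (0.09) and CDH1 (-0.13) did not pass there (adjusted p from 0.289 to 0.775). The part of these genes in the differences above was not tested.

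**Figure D3:**
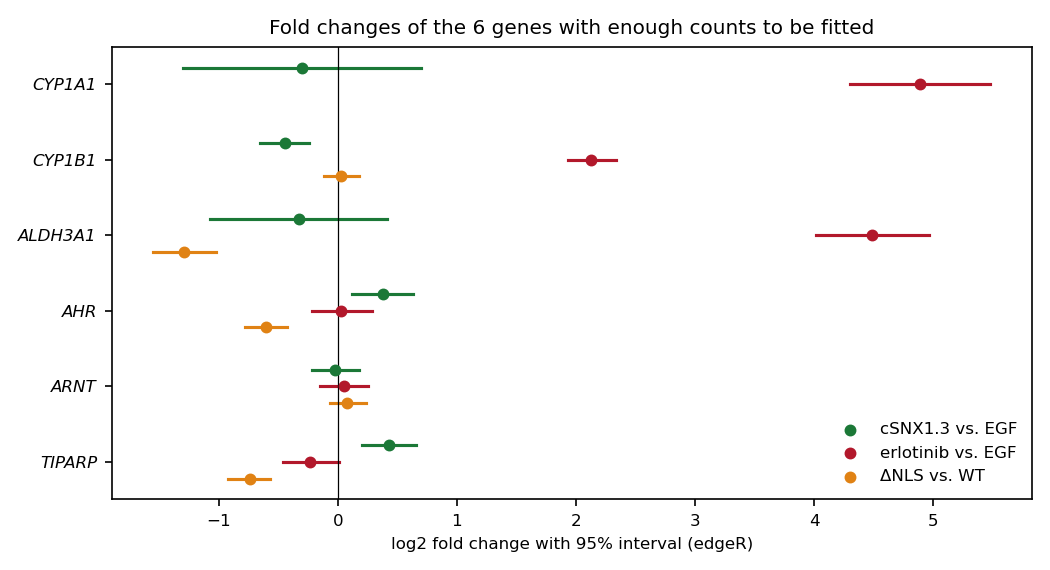
Log2 fold change (horizontal axis) of the 6 fitted genes with cSNX1.3 or erlotinib relative to EGF and in ΔNLS relative to WT, with points for edgeR estimates and lines for 95% intervals (n = 3 libraries per group; CYP1A1 was not fitted in the lines). AHR and TIPARP lie above 0 with cSNX1.3 (0.38 and 0.43) and below 0 in ΔNLS (-0.60 and -0.74), while the erlotinib points of CYP1A1 (4.89) and ALDH3A1 (4.49) stand far to the right.

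The study used cSNX1.3 and ΔNLS as a drug and a mutation against the same process, so the 2 effects were compared in a fit of all 15 libraries. The ΔNLS effect was below the cSNX1.3 effect for TIPARP by 1.17 (log2 difference -1.17; SE 0.14; edgeR adjusted p = 2.17e-06) and for AHR by 0.98 (log2 difference -0.98; SE 0.15; adjusted p = 6.51e-05). For CYP1B1 it was above by 0.48 (SE 0.12; adjusted p = 0.00604). Of all 16524 genes fitted, 23.1% were called. ALDH3A1 had a difference of -0.96 (SE 0.36; adjusted p = 0.0718), which passed the threshold without EGF replicate 1 (-1.24; adjusted p = 0.0382), over a range of 0.0382 to 0.207 for all alternatives. ARNT (0.11; SE 0.11; adjusted p = 0.557) did not pass. CYP1A1 entered this fit through the erlotinib libraries, which the contrast does not use, and is not tested here.

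Around the 8 genes, 49 further genes of the pathway were read from the same fits in 5 lists. The lists were chosen with earlier results of these data known. Their counts, shares and p-values, here and for single genes below, therefore describe the listed genes and are no independent test. They were the cytoplasmic receptor complex, bHLH-PAS relatives and other reported targets of the receptor. The others were enzymes of tryptophan and kynurenine metabolism (a source of AHR ligands), and coactivators with the electron donors of P450 enzymes. With cSNX1.3, 4 of 39 genes fitted rose and 1 fell (12.8%, against 6.07% of all genes; median difference 0.08, against 0.00), and without cSNX1.3 replicate 1 the count was 8, with 4 higher and 4 lower. With erlotinib 11 rose and 11 fell (56.4%, against 44%; median -0.11, against 0.01). In ΔNLS 13 of 41 rose and 14 fell (65.9%, against 41.4%; median -0.12, against 0.01). Of these, GSTA2 (higher) and UGT1A6 (lower) entered the fit only through the line where each was high.

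In the receptor complex, 3 of 5 genes fell with erlotinib. The chaperone genes HSP90AA1 and HSP90AB1 fell by 0.75 (adjusted p = 2.4e-05) and by 0.78 (adjusted p = 3.83e-05), and the kinase gene SRC fell by 0.41 (adjusted p = 0.00123). With cSNX1.3 the 5 differences lay between 0.07 and 0.22 (adjusted p from 0.285 to 0.808). In ΔNLS, SRC rose by 0.58 (adjusted p = 0.000252) and HSP90AB1 by 0.20 (adjusted p = 0.0450).

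Among the bHLH-PAS relatives of AHR and ARNT, the clock genes NPAS2 and BMAL2 moved in all 3 comparisons. NPAS2 stood at 19.7, 20.2 and 19.8 CPM with EGF, at 34.4, 33.4 and 36.3 CPM with cSNX1.3 and at 3.85, 4.66 and 4.65 CPM with erlotinib. It rose by 0.81 with cSNX1.3 (adjusted p = 0.000151) and fell by 2.18 with erlotinib (adjusted p = 9.63e-10), and it fell by 0.46 in ΔNLS (adjusted p = 0.00463). BMAL2 rose by 0.60 with cSNX1.3 (adjusted p = 0.000618), and fell by 0.99 with erlotinib (adjusted p = 5.75e-07) and by 0.97 in ΔNLS (adjusted p = 2.92e-08). For both genes the cSNX1.3 sign was thus the opposite of the ΔNLS sign, as for TIPARP. In all, 2 of 9 fitted relatives were called with cSNX1.3 (6.07% of all genes), 5 of 9 with erlotinib (44% of all genes) and 8 of 9 in ΔNLS (41.4% of all genes).

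Other reported targets went both ways. NQO1, a quinone reductase that AHR and NFE2L2 both induce, stood at 141 to 159.6 CPM with EGF and at 220.3 to 224 CPM with erlotinib, and rose by 0.60 (adjusted p = 0.000107). NFE2L2 rose by 0.82 (adjusted p = 1.48e-06). SERPINB2 and STC2, both reported as induced by the receptor, fell with erlotinib by 0.92 (adjusted p = 0.00613) and by 0.84 (adjusted p = 5.19e-06). Activity of the receptor was not tested. Both rose with cSNX1.3, SERPINB2 by 1.52 (adjusted p = 0.000322) and STC2 by 0.60 (adjusted p = 0.00115). In ΔNLS, SERPINB2 fell by 2.41 (adjusted p = 2.57e-07) and NQO1 fell by 0.43 (adjusted p = 0.000109), while STC2 rose by 1.46 (adjusted p = 1.75e-09). UGT1A6 (21 to 41 counts in WT, 4 to 7 in ΔNLS) differed by -2.45. GSTA2 (6 to 9 counts in WT, 24 to 32 in ΔNLS) differed by 1.80. Each entered the fit only through the line where it was high, so these differences are given without a test. Of this list, 4 of 9 fitted genes rose and 2 fell with erlotinib, 2 rose with cSNX1.3, and 4 of 11 rose and 5 fell in ΔNLS. GSTA2 is among these 4 and UGT1A6 among these 5. Over all genes, 22.8% rose and 21.2% fell with erlotinib, 3.38% rose with cSNX1.3, and 20.4% rose and 21.0% fell in ΔNLS. UGT1A6 shares exons with the other UGT1A genes, which makes its counts uncertain.

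On the way from tryptophan to kynurenine, IDO1, the first enzyme, had 772, 799 and 987 counts in WT and 33, 34 and 35 in ΔNLS, and fell by 4.60 (adjusted p = 1.06e-12). Parental cells had 0 to 5 counts of IDO1 in each library of the drug experiment, whatever the treatment. KMO, which uses kynurenine up, fell by 0.87 with cSNX1.3 (adjusted p = 0.00132), by 0.92 with erlotinib (adjusted p = 9.93e-05) and by 0.30 in ΔNLS (adjusted p = 0.0463). KYNU, which cleaves kynurenine, rose by 0.75 with erlotinib (adjusted p = 3.52e-05) and fell by 0.39 in ΔNLS (adjusted p = 0.00151).

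POR, the reductase that passes electrons to CYP1A1 and CYP1B1, rose by 0.44 with erlotinib (adjusted p = 0.00254) and fell by 0.38 in ΔNLS (adjusted p = 0.000849), and its difference with cSNX1.3 was -0.35 (adjusted p = 0.0526). The AHR coactivator genes NCOA1 and NCOA2 rose with erlotinib by 0.47 (adjusted p = 0.00249) and by 0.66 (adjusted p = 0.000304), and the chromatin remodelling ATPase gene SMARCA4 fell by 0.73 (adjusted p = 2.33e-05). With cSNX1.3 the 10 genes of this list had differences from -0.35 to 0.25 (adjusted p from 0.0526 to 0.923).

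**Figure D4:**
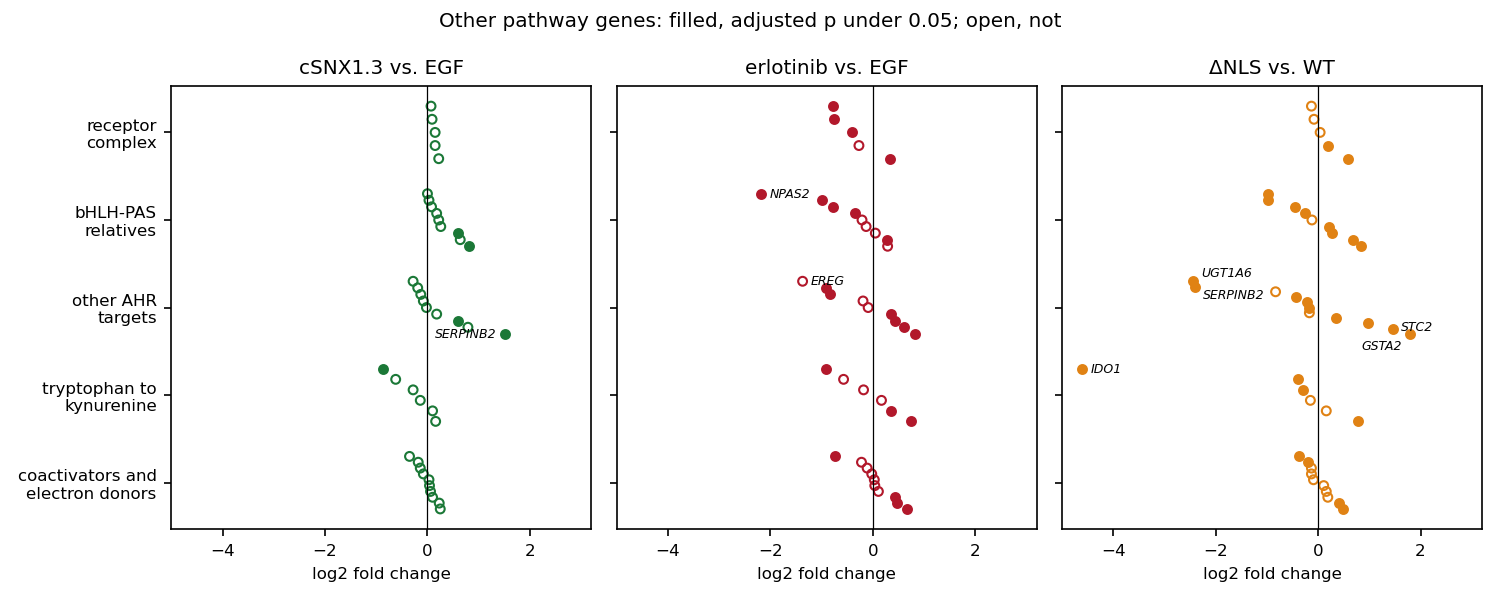
Log2 fold change (horizontal axis) of the fitted genes of 5 pathway lists (rows) with cSNX1.3 or erlotinib relative to EGF and in ΔNLS relative to WT; each point is 1 gene, filled where its edgeR adjusted p was under 0.05 and open otherwise, and genes beyond 1.2 in size are named. Erlotinib and ΔNLS have 22 and 27 filled points against 5 for cSNX1.3, with points on both sides of 0 in most lists and IDO1 at -4.60 in ΔNLS. In ΔNLS, UGT1A6 and GSTA2 entered the fit only through the line where each was high.

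Across the 15 libraries, the genes whose log2 CPM followed CYP1A1 most closely, the 8 genes left out, were AMZ2P1 and TSC22D3 (Pearson r = 0.96 each) and DDX59-AS1, AUH and SNHG1 (r = 0.95 each). These coefficients rest on the 3 erlotinib libraries standing apart from the other 12, and are a description with no p-value. TSC22D3, a glucocorticoid-induced leucine zipper gene, stood at 690.1 to 735 CPM with erlotinib and at 190.4 to 206 CPM with EGF.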

How the data were processed

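RNA of 15 MDA-MB-468 libraries was sequenced. The authors trimmed the reads, mapped them with STAR (GRCh38) and used featureCounts, unstranded, to count read pairs per gene, and they deposited these raw counts; how reads shared by overlapping genes were treated, and the annotation release, are not given in the sources used here. The submitters' processing notes name DESeq2. Groups came from the sample titles. Names and positions came from GENCODE 44, in which 61399 of the 61552 IDs were found. The 8 genes and the 5 lists were chosen with earlier results of these data known.

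Counts were fitted in edgeR 4.0.16 (R 4.3.3) with TMM scaling, filterByExpr by group and robust quasi-likelihood tests, with Benjamini-Hochberg adjustment over all genes fitted and a threshold of 0.05. The drug experiment (9 libraries) and the line experiment (6 libraries) were fitted separately, and the difference of effects was fitted on all 15. Levels are CPM on the TMM scale of all 15 libraries. SEs come from the fits and SDs from replicates. Genes were named if they belonged to the 8 genes or the 5 lists, if they overlapped a member, or if they were among the 5 most correlated with CYP1A1 (mean of at least 1 CPM, prior count 2). A limit of 3 counts per library stood for not detectable and covers counting error only. Replicates of a group differed beyond sampling noise (chi-square per degree of freedom 2.69 to 24.5), and each library was counted separately. This spread may be technical, so it does not show that replicates came from separate cultures. Promoter windows came from RefSeq (GRCh38.p14), and all 35116 matched the genome sequence. Alternatives were DESeq2 1.42.0, its size factors, no filter on low counts, a replicate block, other sets of libraries and leaving out each replicate. The fits were tested on simulated data. The values of 1 listed gene are not reported here.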

Additional observations from a re-analysis of the deposited data

Results flagged for a closer look

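The difference between the ΔNLS effect (ΔNLS vs. WT) and the cSNX1.3 effect (cSNX1.3 vs. EGF) passed edgeR's interaction test for TIPARP, AHR and CYP1B1. Of all 16524 genes fitted, 23.1% passed it. The difference was -1.17 for TIPARP (log2; SE 0.14; adjusted p = 2.17e-06), with cSNX1.3 libraries above EGF in 3 of 3 and ΔNLS libraries below WT in 3 of 3. Groups did not overlap for 25.7% of all genes with cSNX1.3 and for 52.2% in ΔNLS. For AHR the difference was -0.98 (SE 0.15; adjusted p = 6.51e-05), where the cSNX1.3 effect by itself missed the threshold. For CYP1B1 it was 0.48 (SE 0.12; adjusted p = 0.00604), where the ΔNLS effect by itself missed it. The 2 effects come from different cell lines and experiments, so what the mutation, the peptide, the line and the experiment each contribute cannot be told apart. Groups of 3 libraries were not screened for outlying samples.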

How the results depend on the processing

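The count of called genes among the 8 was 3 in ΔNLS and 3 to 4 for the difference of effects under every alternative. With cSNX1.3 the count was 2, with 2 to 3 under other settings and 1 to 2 when each replicate was left out in turn (1 without EGF replicate 1, EGF replicate 3, cSNX1.3 replicate 2 or cSNX1.3 replicate 3). The main fits held 5 of the 8 genes in ΔNLS and 6 for the difference, and other settings held up to 8. Of all genes in the main fits, 41.4% were called in ΔNLS, 23.1% for the difference, 6.07% with cSNX1.3 and 44% with erlotinib. Of the other pathway genes, 5 were called with cSNX1.3 (5 to 8 leaving out each replicate, 8 without cSNX1.3 replicate 1, with lower calls going from 1 to 4), 22 with erlotinib (18 to 23) and 27 in ΔNLS (19 to 28). The 27 include UGT1A6 and GSTA2, which entered that fit only through the line where each was high. The sign turned for small differences that were never called or were not tested: AHR with erlotinib was -0.08 without EGF replicate 2 and -0.03 without erlotinib replicate 2 (-0.08 to 0.11), CYP1A1 with cSNX1.3 was 0.22 without EGF replicate 1 (-0.68 to 0.22), ARNT with cSNX1.3 was 0.05 without cSNX1.3 replicate 1 (-0.07 to 0.05), CYP1B1 in ΔNLS was -0.00 without WT replicate 3 (-0.00 to 0.09), and the difference of effects for CYP1A1 was -0.01 without EGF replicate 1 (-0.01 to 1.13). The erlotinib difference of ALDH3A1 was 4.78 without EGF replicate 1. That of CYP1A1 was 5.41 without EGF replicate 1 and 4.51 without EGF replicate 2, against 4.89 with all libraries. The cause was not tested. Where a group was left with 2 libraries, the fit pooled the spread over groups. At 0 to 11 counts per library outside erlotinib, depth limits what CYP1A1, CYP1A2 and AHRR can show.

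With the replicate number as a block, 2 of 6 fitted genes among the 8 were called with cSNX1.3. CYP1A1 and ALDH3A1 were among these 6 only through the erlotinib libraries. The block gave 3 of 5 in ΔNLS and 3 of 6 for the difference of effects. Of the other pathway genes, it gave 5 of 39 with cSNX1.3, 22 of 39 with erlotinib and 22 of 41 in ΔNLS. Shares of all genes with the block are not given here. In the main fits they were 6.07% (cSNX1.3), 44% (erlotinib), 41.4% (ΔNLS) and 23.1% (difference). Same-numbered libraries did not deviate together (correlations of -0.41, -0.26 and 0.44 for cSNX1.3 and EGF, -0.17, -0.05 and 0.17 for erlotinib and EGF, and -0.16, -0.17 and -0.00 for ΔNLS and WT), so the numbers were not taken to pair them.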
